A study of Pseudotaxus chienii with 9 samples.

Results

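The chromosome 11 taxane hydroxylase cluster of Pseudotaxus chienii is described here through 7 genes of the 26827 in the deposited table. They are 3 genes described as taxane 13-alpha-hydroxylases, 1 described as a taxoid 2-alpha-hydroxylase, 1 as the cytochrome P450 CYP750C8, 1 as a PR10 protein and 1 as a putative epoxidase. They were chosen by their gene identifiers, with their shared on and off expression over the libraries already known, so their levels and fold changes are given as a description. Where calls from the fit across all genes are counted for them, they rest on the values by which the genes were chosen and are no independent evidence. The descriptions are matches to proteins of Taxus species or, for the PR10 protein, of the pine Pinus monticola, and no function was measured. Only 4 of the 7 are named as taxane hydroxylases, and the table's own annotations disagree on the site they oxidise. All 3 genes described as 13-alpha-hydroxylases carry the ontology term for taxoid 14-beta-hydroxylase activity, and the gene described as a 2-alpha-hydroxylase carries that for taxoid 7beta-hydroxylase activity.

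Polyadenylated RNA from leaves of this yew-family conifer was sequenced in 9 libraries, 3 for each of 3 groups. The groups are CK, whose label names no methyl jasmonate, and leaves given methyl jasmonate (MeJA, a volatile plant hormone of wounding and defence) for 1 day or for 2 days. The labels give no strain, genotype, age or dose, no time of sampling for CK and no word on a mock treatment. Nothing in them ties libraries to separate plants, so every p-value below reflects library-to-library spread that may be technical.

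Taxanes are diterpenoids of the yew family, among them the anticancer drug paclitaxel. Their ring system is formed from geranylgeranyl diphosphate by taxadiene synthase, and cytochromes P450, most of them of the CYP725A family in Taxus, then add hydroxyl groups at successive positions, alternating with acyltransferases that esterify them. In cultured Taxus cells methyl jasmonate is widely used to raise taxane production.

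Summed estimated counts per library were between 48893949 and 58703021, and 23194 to 24252 genes had a count above 0. Pairs of CK libraries had Pearson correlations of 0.95 to 0.956 (log2 of counts scaled to library size, across genes, which are not independent replicates). CK library 2 correlated more highly with every treated library than CK libraries 1 and 3 did. With day 1 library 3 the values were 0.928 for CK library 2 and 0.901 and 0.887 for CK libraries 1 and 3. With day 2 library 2 they were 0.862, against 0.827 and 0.816. Day 1 library 2 stood apart, at 0.871 and 0.862 with the other day 1 libraries, which correlated with each other at 0.948. The summed level of 47 nuclear photosynthesis genes, a check of leaf tissue, was 9309 to 11892 FPKM (fragments per kilobase of gene and library size, the authors' length-scaled unit) in CK. It was 6974, 941 and 3894 FPKM in day 1 libraries 1, 2 and 3, and 4012, 700 and 3808 FPKM in day 2 libraries 1, 2 and 3. The sum follows the most abundant of these genes, since 24 of the 36 tested had positive estimates at each day, with median log2 fold changes of 1.56 at day 1 and 0.87 at day 2. The libraries with the lowest photosynthesis sums were thus day 1 library 2 and day 2 library 2, which held the lowest and the highest levels of the cluster among the treated libraries. The part of tissue state in the results was not tested, and in whole leaves fewer cells of a type and less RNA per cell cannot be told apart.

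The 7 genes were on together in 6 libraries and at or near 0 together in the other 3, and this division did not follow the treatment labels. All 7 were at 0 counts in CK libraries 1 and 3 and between 174 and 1921 counts in CK library 2. In day 1 library 2, 4 of the 7 were at 0 and the highest had 5 counts, while every gene had at least 722 counts in day 1 library 1. The lowest count of any of the 7 in day 2 was 851, in library 1, and the highest was 181791, for CYP750C8 in library 2. Ranked from high to low, 6 of the 7 genes had the same order of libraries, namely day 2 library 2, day 2 library 3, day 1 library 3, day 2 library 1, day 1 library 1 and CK library 2. The PR10 gene differed only in having day 1 library 1 above day 2 library 1.

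**Figure D1:**
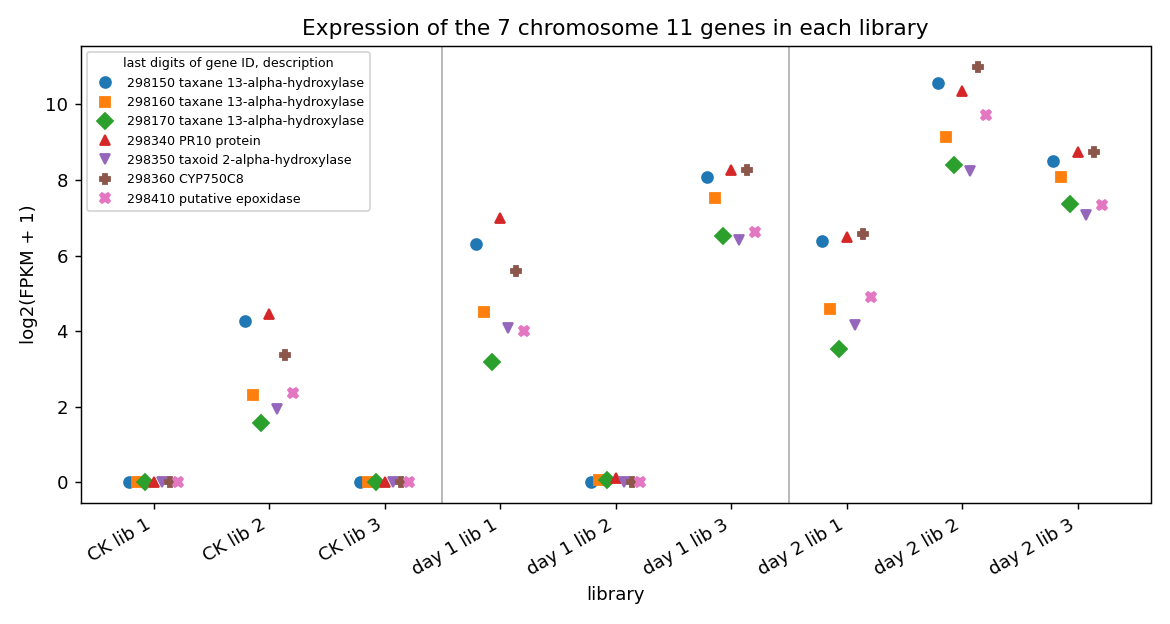
Levels of the 7 chromosome 11 genes in each of the 9 libraries, as log2(FPKM + 1), with 1 marker per gene and vertical lines between the groups of 3 libraries (CK, MeJA for 1 day, MeJA for 2 days). All 7 markers lie at 0 in CK libraries 1 and 3 and at or near 0 in day 1 library 2, and all lie highest in day 2 library 2.

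The 3 genes described as taxane 13-alpha-hydroxylases, P450s that in Taxus oxidise the taxane core early in the pathway, lie beside each other on the minus strand. PchiChr11G298150 (chromosome 11, block 1, 22100605 to 22102596) was at 0, 18.4 and 0 FPKM in CK libraries 1, 2 and 3, at 78.1, 0 and 268 FPKM in the day 1 libraries and at 81.9, 1530 and 365 FPKM in the day 2 libraries. Its day 2 libraries all lay above its CK libraries, whereas day 1 library 2 lay with the CK libraries at 0. PchiChr11G298160 (22117508 to 22119614) was at 0, 4.0 and 0 FPKM in CK, at 21.6, 0.0444 and 184 FPKM at day 1 and at 23.2, 563 and 268 FPKM at day 2. PchiChr11G298170 (22200907 to 22438536) was at 0, 1.95 and 0 FPKM in CK, at 8.15, 0.0438 and 90.8 FPKM at day 1 and at 10.6, 333 and 164 FPKM at day 2. The same libraries were high and low for all 3 copies, with PchiChr11G298150 above PchiChr11G298160 and PchiChr11G298160 above PchiChr11G298170 in each of the 6 libraries in which they were on. PchiChr11G298170 spans 237630 bases and PchiChr11G298150 spans 1992 bases. In day 2 library 2 they had 85.0 and 100 counts per FPKM, so the length behind the FPKM of PchiChr11G298170 is not its span. How alike the sequences of these copies are was not measured. If they are near-identical, shared reads may have been split between them, so the levels of single copies are uncertain.

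The taxoid 2-alpha-hydroxylase gene PchiChr11G298350 (25078497 to 25080698, plus strand) is named for a P450 that in Taxus hydroxylates the taxane core at a later step. It was at 0, 2.81 and 0 FPKM in CK, at 15.9, 0 and 83.7 FPKM at day 1 and at 17.0, 301 and 134 FPKM at day 2. In day 2 library 2 it was the lowest of the 7 genes. CYP750C8, of another P450 family than the CYP725A taxane hydroxylases, is PchiChr11G298360 (25416807 to 25418440, minus strand). It was at 0, 9.38 and 0 FPKM in CK, at 46.9, 0 and 310 FPKM at day 1 and at 94.5, 2046 and 430 FPKM at day 2. Its level in day 2 library 2 had rank 4 of all genes by FPKM in that library. Its ontology terms name secondary metabolism in general and no taxane step.

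The putative epoxidase gene PchiChr11G298410 (26790757 to 26792107, plus strand) was matched to Taxus baccata and carries an ontology term for dioxygenase activity. It was at 0, 4.14 and 0 FPKM in CK, at 14.9, 0 and 98.0 FPKM at day 1 and at 28.9, 843 and 161 FPKM at day 2. PchiChr11G298340 (24980873 to 24981877, minus strand), the PR10 gene, belongs by name to a family of small pathogenesis-related proteins, many of which bind small ligands, and carries terms for abscisic acid binding. It was at 0, 21.0 and 0 FPKM in CK, at 126, 0.0722 and 308 FPKM at day 1 and at 88.7, 1303 and 423 FPKM at day 2. It is the only member that is not named as an enzyme, and its libraries divided in the same way as those of the 6 enzyme genes.

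As a share of all counts, the 7 genes together made up 0.00951% in CK library 2 (95% exact Clopper-Pearson interval 0.00926 to 0.00977%). In CK libraries 1 and 3 a sum of 0 counts allows a share of up to 5.15e-06% and 5.54e-06% (3 counts). The share was 0.0473%, 2.41e-05% and 0.218% in day 1 libraries 1, 2 and 3. At day 2 it was 0.0553%, 1.11% and 0.315%, so 585140 counts in library 2 came from these 7 genes. Intervals and limits cover counting error only. At these depths the 0 values of CK libraries 1 and 3 lie far under the level of CK library 2, beyond counting error.

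The group comparisons ask whether 1 or 2 days of MeJA changed expression relative to CK, and both share the CK libraries. All 7 genes passed the filter on low counts. The SE given with an edgeR fold, here and below, is the absolute log2 fold divided by the square root of the test's F statistic. It was derived from the test and not estimated directly, so it is an approximation. Their log2 fold changes at day 1 were 4.28 (SE 3.16) for PchiChr11G298150, 5.73 (SE 3.01) for PchiChr11G298160, 5.70 (SE 2.77) for PchiChr11G298170 and 5.19 (SE 2.88) for the 2-alpha-hydroxylase. They were 5.29 (SE 3.25) for CYP750C8, 4.81 (SE 2.87) for the epoxidase and 4.42 (SE 2.91) for the PR10 gene. The groups overlapped for every gene at day 1. At day 2 the estimates ran from 6.63 (SE 3.23, PR10) to 8.31 (SE 3.72, CYP750C8), and between the days from 2.20 (SE 2.56, PchiChr11G298160) to 3.37 (SE 2.67, epoxidase). In group means, CYP750C8 was at 3.13 ± 5.42 FPKM in CK, 119 ± 167 at day 1 and 857 ± 1043 at day 2 (SD, n = 3), an SD above the mean in every group.

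None of the 7 passed an adjusted p of 0.05 in edgeR's quasi-likelihood test at day 1, where 5.34% of the 22384 genes tested did (4.34% higher and 1.0% lower), or at day 2, where 4.95% did (4.09% higher and 0.858% lower). At an unadjusted p under 0.05 the counts were 0 at day 1 and 4 at day 2, against 23.8% and 24.7% of all genes. In DESeq2 they were 2 and 7, against 24.7% and 25.3%, and in limma 0 and 7, against 25.3% and 28.1%. DESeq2 called 0 and 2 of the 7, against 16.6% and 17.0% of all genes it tested, and limma called 0 at both days, against 7.34% and 7.75%. Between the days edgeR called 0 of all genes tested (0.0%, with 949 at an unadjusted p under 0.05), limma 0 (0.0%) and DESeq2 64 (0.283%), none of them among the 7. All libraries of the group lay above all CK libraries for 0 of the 7 genes at day 1 and for 7 of 7 at day 2, against 13.5% and 18.1% of all genes tested. Every day 2 library lay above every day 1 library for 0 of 7, against 4.04% of all genes.

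CK library 2 set the size of these differences. The median log2 fold change of the 7 genes was 5.19 at day 1 and 7.93 at day 2, against 0.03 and 0.03 over all genes tested. Without CK library 2, where the CK level rests on 2 libraries at 0, the medians were 15.8 and 18.1, and these sizes depend on the small value that the fit puts in place of 0. Without day 1 library 3 the day 1 median was 2.98, and without day 1 library 2 it was 5.75. The median difference between the days was 2.51, and it was 1.16 without day 2 library 2, 4.79 without day 1 library 3 and 1.95 without day 1 library 2. The all-gene background depended on single libraries too, with 134, 356 and 142 genes called at day 1 and 48, 372 and 204 at day 2 without CK library 1, 2 and 3, respectively. Without a treated library the counts were 594 (day 2 library 3) to 1193 (day 1 library 2) at day 1 and 432 (day 2 library 2) to 2893 (day 1 library 2) at day 2.

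Set against CK library 2 alone, the treated libraries that expressed the genes were higher, by amounts that differed between libraries. These are ratios of single libraries without a test. Day 1 library 1 was 3.61 to 6.01 times CK library 2 over the 7 genes and day 1 library 3 was 14.6 to 46.5 times. Day 2 library 2 was 61.9 times CK library 2 for the PR10 gene and 218 times for CYP750C8, the lowest and the highest of the 7. Libraries of the same treatment differed as well. Day 1 library 3 was 2.43 to 11.1 times day 1 library 1, and day 2 library 2 was 14.7 to 31.4 times day 2 library 1. Day 2 library 1 was 0.701 to 2.02 times day 1 library 1, so these libraries of different days lay closer to each other than to the other libraries of their own groups. They did so across all genes too, with a correlation of 0.967 against 0.948 or less within their groups.

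Within the 6 libraries in which the genes were on, their proportions were not constant. The level of PchiChr11G298160 relative to PchiChr11G298150 was 0.217, 0.277 and 0.283 in CK library 2, day 1 library 1 and day 2 library 1. It was 0.688, 0.368 and 0.735 in day 1 library 3, day 2 library 2 and day 2 library 3. The ratio of PchiChr11G298170 to PchiChr11G298150 had the widest range of the 6 ratios, with a 4.31-fold range between 0.104 (day 1 library 1) and 0.449 (day 2 library 3). The ratio for the 2-alpha-hydroxylase ran from 0.153 to 0.367 and that for the epoxidase from 0.191 to 0.551. CYP750C8 was at 0.510 and 0.60 of PchiChr11G298150 in CK library 2 and day 1 library 1, and at 1.15 to 1.34 in the other 4 libraries. The PR10 gene kept the steadiest proportion, 0.851 to 1.62, a 1.90-fold range. Over these 6 libraries the pairwise correlations of log2(FPKM + 1) were 0.965 to 0.998 (21 pairs, median 0.982), and over all 9 libraries 0.948 to 0.999. The coefficients over 9 libraries rest on the division into libraries with and without expression, and all members share the same libraries.

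**Figure D2:**
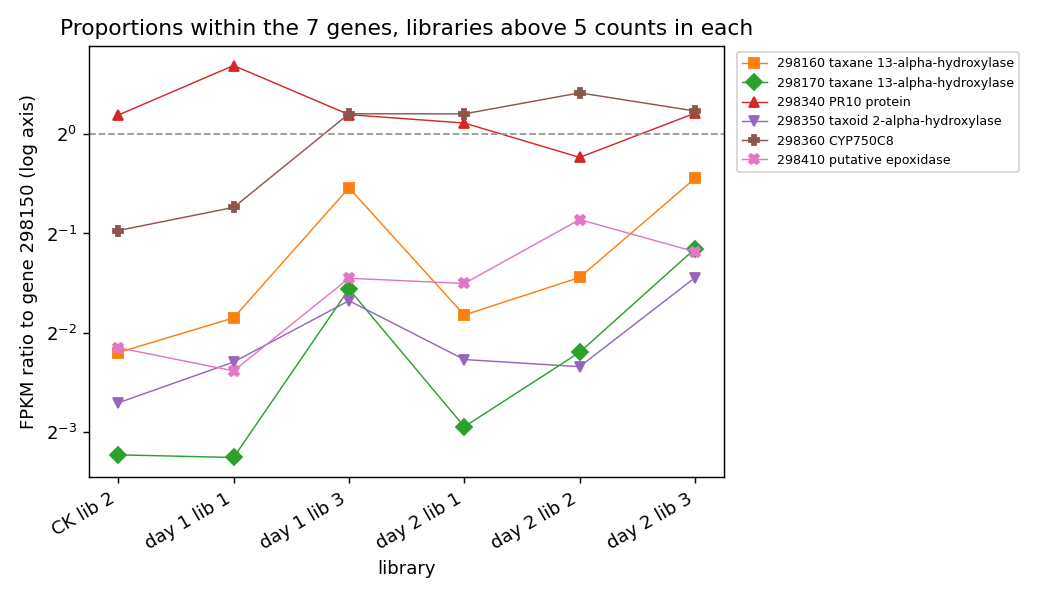
FPKM of 6 of the genes divided by the FPKM of PchiChr11G298150, on a log axis, in the 6 libraries with more than 5 counts for each gene; lines join the values of a gene and carry no time order. The ratios of PchiChr11G298160 and PchiChr11G298170 are highest in day 2 library 3, at 0.735 and 0.449, while the PR10 ratio stays between 0.851 and 1.62.

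The 7 genes do not form an unbroken array. They span 4.69 Mb (chromosome 11, block 1, 22100605 to 26792107, in the positions of the deposited table) and the table holds 23 genes from the first to the last, so 16 genes of the span are not among the 7. The 13-alpha-hydroxylase genes are separated by gaps of 14.9 and 81.3 kb. A gap of 2542 kb with 12 genes follows, then the PR10, 2-alpha-hydroxylase and CYP750C8 genes with gaps of 96.6 and 336 kb and no gene between them. Another 1372 kb with 4 genes leads to the epoxidase gene.

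Some genes in between had the same on and off pattern and others did not. PchiChr11G298190, a further 13-alpha-hydroxylase, was at 0, 1.20 and 0 FPKM in CK, at 3.92, 0.0320 and 84.2 at day 1 and at 4.82, 195 and 132 at day 2. PchiChr11G298390, described as a taxadiene 5-alpha hydroxylase, the P450 of the first oxidation step, was at 0, 1.41 and 0 FPKM in CK, at 16.3, 0 and 88.2 at day 1 and at 17.9, 809 and 107 at day 2. Both were high in the libraries in which the 7 were high. A taxoid 10-beta hydroxylase gene (PchiChr11G298320, highest at 56.9 FPKM) and a taxadienol acetyltransferase gene (PchiChr11G298370, highest at 238 FPKM) were also at 0 in CK libraries 1 and 3. They were kept from the same class by 68 counts in CK library 2 and 10 counts in day 1 library 2, respectively. In contrast, PchiChr11G298400, a 13-alpha-hydroxylase gene, was at 2.5, 2.51 and 1.74 FPKM in CK. It was at 4.35, 0.106 and 2.06 FPKM at day 1 and at 2.44, 4.49 and 3.37 FPKM at day 2. Day 1 library 2, where the 7 genes were at or near 0, was thus its lowest library too. Genes of other kinds were expressed throughout, such as an RNA-binding protein 1 (PchiChr11G298300) at 11 to 20.6 FPKM and the unnamed PchiChr11G298270 at 38.7 to 86.3 FPKM, and PchiChr11G298210 at 4.07 to 7.58 FPKM. PchiChr11G298280, also unnamed, ranged from 0.695 to 16.9 FPKM. Of the 16 genes, 7 had a mean under 1 FPKM in every group.

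The pattern went on past the epoxidase gene. Among the 10 genes that follow it, a further putative epoxidase (PchiChr11G298420), taxadiene 5-alpha hydroxylases (PchiChr11G298440 and PchiChr11G298450) and a taxane 7-beta-hydroxylase (PchiChr11G298490) had it, with highest levels of 658, 896, 846 and 1249 FPKM in day 2 library 2. A taxadienol acetyltransferase (PchiChr11G298430, 0 to 1001 FPKM), a 2-alpha-hydroxylase (PchiChr11G298480, 0.0360 to 567 FPKM) and the CYP725A23 genes PchiChr11G298500 and PchiChr11G298510 (up to 1054 and 1740 FPKM) came close to it. The 13-alpha-hydroxylase gene PchiChr11G298470 stayed between 0.0887 and 3.86 FPKM, with its lowest level in day 1 library 2 and 2.68 to 3.42 FPKM in CK. A further PR10 gene (PchiChr11G298460) reached 2.81 FPKM in day 2 library 2 and was at 0 in all CK and day 1 libraries. On the other side, none of the 10 genes before PchiChr11G298150 had the pattern. The nearest, CYP725A23 gene PchiChr11G298140, was on in all CK libraries, at 2.02, 1.63 and 2.24 FPKM. It was at 4.71, 1.03 and 13.5 FPKM at day 1 and at 4.61, 43.6 and 18.1 FPKM at day 2. Among the treated libraries it was thus highest in day 2 library 2 and lowest in day 1 library 2, as the 7 genes were. The myb-related PchiChr11G298050 was at 20.6 to 29.7 FPKM. The unnamed genes PchiChr11G298060, PchiChr11G298090, PchiChr11G298100 and PchiChr11G298120 were above 1 FPKM in all 9 libraries. Of the 36 genes in and beside the span that are not among the 7, edgeR tested 28. It called 0 at day 1 and 0 at day 2, against 5.34% and 4.95% of all genes tested. At an unadjusted p under 0.05 the counts were 1 and 14, against 23.8% and 24.7%. DESeq2 called 2 and 11 of 36 with a p-value, against 16.6% and 17.0%. limma called 0 and 1 of 24, against 7.34% and 7.75%. The median log2 fold changes of the 28 genes were 0.61 and 1.74.

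**Figure D3:**
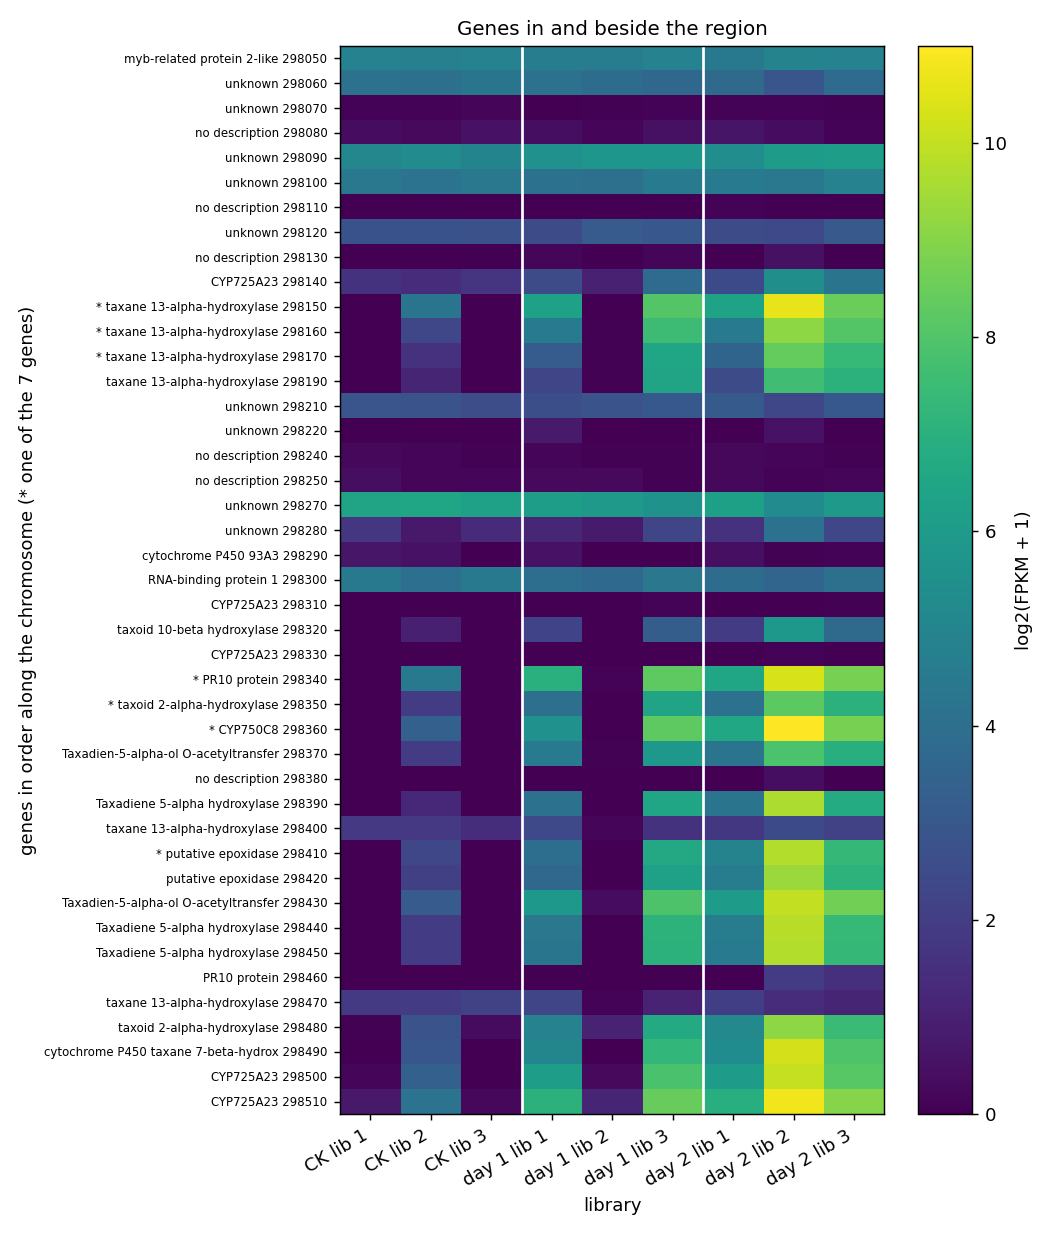
Levels as log2(FPKM + 1), by colour, of the 43 genes from 10 before the first to 10 after the last of the 7 genes (starred), in chromosome order from top to bottom, in the 9 libraries, with white lines between groups. Rows that are dark in CK libraries 1 and 3 and day 1 library 2 and bright in day 2 library 2 alternate with rows of even colour, and continue below the last starred row.

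Over the whole table, 38 genes were at 0 in CK libraries 1 and 3, at 5 counts or fewer in day 1 library 2 and at 100 counts or more in the other 6 libraries. These limits were set from the values of the 7 genes, which are among the 38, so the count is a description. The opposite pattern, with 100 counts or more in those 3 libraries and 5 or fewer in each of the other 6, held for 0 genes. Its limits differed, since the first pattern required 0 counts in CK libraries 1 and 3. Other divisions of the libraries were not counted. Of the 31 genes that are not members, 10 were on chromosome 11, and 14 were named for taxane steps. The latter included 3 taxadiene synthases, of the step that forms the taxane ring system, and 3 taxadiene 5-alpha hydroxylases. Another 9 were described as putative epoxidases, 7 of them on chromosome 4.

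The genes most like the mean profile of the 7 were sought among the 18369 other genes with at least 1 FPKM in 3 or more libraries, by Pearson correlation of log2(FPKM + 1) over the 9 libraries. In the 8 leading places, 5 were putative epoxidases on chromosome 4 (PchiChr4G122210, PchiChr4G122220, PchiChr4G122250, PchiChr4G122200 and PchiChr4G117610), led by PchiChr4G122210 with 0.999 over 9 libraries and 0.998 over the 6 libraries that expressed the cluster. PchiChr4G122210 was at 0, 6.34 and 0 FPKM in CK, at 34.9, 0 and 170 at day 1 and at 46.8, 746 and 271 at day 2. The other 3 were PchiChr1G004520 and PchiChr1G011640, both without an informative description, and the 7-beta-hydroxylase PchiChr11G298490. The members themselves correlated with the mean profile at 0.985 to 0.998, and 37 other genes were above 0.99, of which 10 lay on block 1 of chromosome 11.

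Beyond the 7 genes, 58 genes of the table were described with a taxane step, among them the taxane genes of the neighbourhood, and 51 were tested. Of these, edgeR called 2 higher and 0 lower at day 1, and 3 higher and 0 lower at day 2. Of all genes tested, 4.34% and 4.09% were called higher, so these edgeR counts lay near the all-gene share. At an unadjusted p under 0.05 the edgeR counts were 11 and 44 of 51, against 23.8% and 24.7% of all genes. DESeq2 called 10 and 34 of 53, against 16.6% and 17.0%, and limma 5 and 15 of 50, against 7.34% and 7.75%. All libraries of the group lay above all CK libraries for 10 at day 1 and 49 at day 2, against 13.5% and 18.1%. The median log2 fold changes of the 51 were 4.69 and 7.39. Between the days edgeR called 0 of them (1 at an unadjusted p under 0.05, DESeq2 0, limma 0). In CK libraries 1, 2 and 3, 41, 6 and 46 of the 58 were at 0 counts, and 25 were at 0 in day 1 library 2, against 1 to 5 in the other treated libraries. Their summed levels were 33.8, 263 and 34.9 FPKM in CK, 1662, 288 and 4805 at day 1 and 1571, 28459 and 7289 at day 2. The sum of day 1 library 2 thus lay near that of CK library 2, although the 7 genes were near 0 in the former and on in the latter. The called counts rested on single libraries, falling to 0 at both days without CK library 1 or without CK library 3, to 0 at day 1 without CK library 2, and rising to 13 at day 2 without day 1 library 2. They were 1 at day 1 without day 1 library 2 or 3 or day 2 library 1 or 3, and 1 at day 2 without day 1 library 3 or day 2 library 2 or 3.

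The steps that surround the hydroxylations showed which taxane genes divided the libraries as the 7 did. For taxadiene synthase, the copy with the highest mean of 5 (PchiChr11G299870) was at 0, 22.3 and 0 FPKM in CK, at 161, 9.42 and 422 at day 1 and at 127, 1758 and 643 at day 2. The leading taxadiene 5-alpha hydroxylase (PchiChr11G299400) was at 0.112, 10.6 and 0.247 FPKM in CK, at 67.8, 60.2 and 238 at day 1 and at 73.1, 1256 and 261 at day 2. This copy was thus on in day 1 library 2, in contrast to the 7 genes, and its adjusted p in edgeR was 0.161 at day 1 and 0.0879 at day 2 (0.0442 at day 2 without CK library 2). Other tools called this copy at both days, with adjusted p-values of 0.00366 and 6.9e-06 in DESeq2 and of 0.0385 and 0.0169 in limma. The leading 10-beta hydroxylase (PchiChr11G298550) reached 15 FPKM in day 1 library 2, against 43.5 and 114 FPKM in the other day 1 libraries and 3.46 FPKM or less in CK. The leading 7-beta-hydroxylase (PchiChr11G299570) was lowest in day 1 library 2, at 1.26 FPKM, under its CK levels of 16.6, 33.1 and 17.5 FPKM, and without that library its edgeR adjusted p at day 2 was 0.0225, against 0.122 with all libraries (0.00101 in DESeq2).

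Among the called genes, DBAT (10-deacetylbaccatin III 10-O-acetyltransferase, which makes baccatin III), PchiChr11G300670 at 97823384 to 97824981 on the same block, was at 0.374, 0.392 and 0.386 FPKM in CK, at 11, 35.3 and 10.2 at day 1 and at 6.46, 36.8 and 19.5 at day 2. It rose at day 1 by a log2 fold of 5.78 (SE 0.89, edgeR adjusted p = 0.0140) and at day 2 by 5.92 (SE 0.89, edgeR adjusted p = 0.0144). DBAT was uniform over the CK libraries and high in day 1 library 2, where the 7 genes were near 0. Leaving out CK library 1, 2 or 3 raised its edgeR adjusted p to 0.0775, 0.0602 and 0.0729 at day 1 and to 0.0775, 0.0563 and 0.0770 at day 2. A debenzoyltaxol N-benzoyltransferase gene (PchiChr4G123700), of the paclitaxel side chain, was at 7.21 to 10.3 FPKM in CK and at 27.2 to 96.9 FPKM in the treated libraries. Its edgeR adjusted p was 0.0424 at day 1 and 0.0419 at day 2, and 0.143 to 0.147 and 0.140 to 0.149 with a CK library left out. The adjusted p was also above 0.05 at day 1 without day 1 library 2 or 3 or day 2 library 1 or 3 (0.0517 to 0.0736) and at day 2 without day 1 library 3 or day 2 library 2 or 3 (0.0582 to 0.112). A taxadienol acetyltransferase gene (PchiChr9G253100) was at 0.305, 4.55 and 0.662 FPKM in CK and at 52.4, 760 and 246 FPKM at day 2 (edgeR adjusted p = 0.0386, and 0.0526 to 0.152 without any one library other than day 1 library 2 or day 2 library 1).

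Of the 23 genes named for jasmonate synthesis or signalling 18 were tested, and edgeR called 4 higher and 0 lower at day 1 and 4 higher and 0 lower at day 2. Of all genes tested, 4.34% and 4.09% were called higher. The median log2 fold changes of the 18 were 1.60 and 1.98. MYC2a (PchiChr2G047860), a transcription factor that activates jasmonate-responsive genes, was at 7.26, 9.90 and 5.19 FPKM in CK, at 28.9, 39.3 and 36.1 at day 1 and at 40.1, 41.1 and 40.5 at day 2. Its levels thus divided the libraries by treatment, as those of the 7 genes and of some other jasmonate genes did not. MYC2a rose by a log2 fold of 2.37 (SE 0.28, edgeR adjusted p = 0.00718) at day 1 and 2.57 (SE 0.28, edgeR adjusted p = 0.00758) at day 2, and without CK library 1 the adjusted p was 0.0524 and 0.0504. MYC2a in day 1 library 2 was above that of the other day 1 libraries, and CK library 2 lay far below every treated library. A group V JAZ gene (PchiChr12G333780), from the family of repressors that hold MYC factors back, was at 55.7 to 59.5 FPKM in CK and at 109 to 156 FPKM at day 2 (log2 1.39, SE 0.26, edgeR adjusted p = 0.0277, and 0.0639 to 0.120 without any one CK library or day 2 library 2 or 3). At day 1 this JAZ gene was at 80.5, 74.3 and 126 FPKM (log2 0.83, SE 0.26, edgeR adjusted p = 0.108, 0.0199 in DESeq2). Day 1 library 2 was thus its lowest treated library. Lipoxygenase 1 (PchiChr2G052390), of an early step of jasmonate synthesis, was at 0.111 to 0.590 FPKM in CK and at 18.8, 225 and 11.8 FPKM at day 1 (log2 8.27, SE 1.59, edgeR adjusted p = 0.0282). Its adjusted p was 0.102 to 0.116 without a CK library and 0.0539 without day 2 library 3. The counts of called jasmonate genes fell to 0 at both days without CK library 1 and to 1 at both days without CK library 2 or 3. They were 1 at both days without day 2 library 3, and at day 2 they were 1 without day 2 library 2 and 8 without day 1 library 2. All treated libraries lay above all CK libraries for 7 of the 18 at day 1 and 8 at day 2, against 13.5% and 18.1% of all genes. PchiChr2G055460, described as TIFY 9-like, divided the libraries much as the 7 did. It was at 0, 0.487 and 0 FPKM in CK, at 3.31, 0.472 and 29.3 at day 1 and at 5.10, 160 and 38.5 at day 2. The genes named before it had the lowest adjusted p, a choice that favours even levels within groups.

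**Figure D4:**
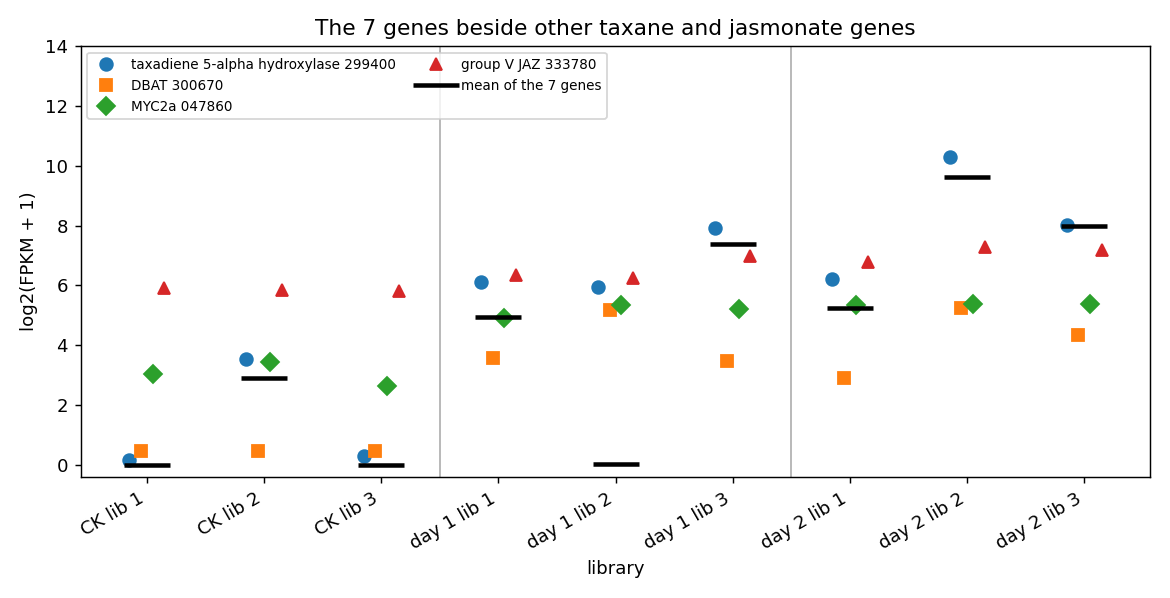
The mean log2(FPKM + 1) of the 7 genes (bars) in each library beside a taxadiene 5-alpha hydroxylase, DBAT, MYC2a and a group V JAZ gene (markers), with vertical lines between groups of 3 libraries. In day 1 library 2 the mean of the 7 genes is 0.03 while the 4 other genes are above their CK levels. The 5-alpha hydroxylase and the JAZ gene are there at their lowest of the treated libraries. In CK library 2 the mean of the 7 genes is 2.90 while DBAT, MYC2a and the JAZ gene lie below all treated libraries. MYC2a is there at its highest of the CK libraries.

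Markers of other tissues and of handling also differed between libraries. The summed level of 35 woody tissue genes was 59.5 to 68.1 FPKM in CK, 146 to 214 at day 1 and 134 to 183 at day 2, with 8 to 19 of them at 0. A list of 48 genes, called pollen and seed genes here, was matched by the words pollen, late embryogenesis abundant, vicilin, legumin and oleosin. Matches to such words do not show that pollen or seed tissue was present. Their summed level was 466 to 629 FPKM in CK, 1208 to 3070 at day 1 and 976 to 2665 at day 2. It was highest in day 1 library 2, with 4 to 12 genes at 0. For 7 epidermis genes, none at 0 in any library, it was 142 to 237, 109 to 161 and 111 to 164 FPKM, highest in CK library 2. For 54 heat shock genes it was 3929 to 4509, 2268 to 2692 and 3593 to 4724 FPKM, with 2 to 6 at 0. Of the genes tested, edgeR called 2 of 23 woody tissue, 12 of 40 pollen and seed and 1 of 7 epidermis genes higher at day 1. It called 4 of 48 heat shock genes lower. Of all genes tested, 4.34% were called higher and 1.0% lower at day 1, and 4.09% and 0.858% at day 2. At day 2 those called were 3 woody tissue genes and 1 epidermis gene, higher, with 11 pollen and seed genes higher and 1 lower. No heat shock gene was called at day 2 (8 at an unadjusted p under 0.05, DESeq2 5, limma 2). No photosynthesis gene was called at day 1 (12 unadjusted, DESeq2 1, limma 0) or day 2 (7 unadjusted, DESeq2 4, limma 0). The part of these markers in the levels of the 7 genes was not tested.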

How the data were processed

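Per the labels' protocols, leaf RNA was taken with TRIzol and prepared with a VAHTS Universal V6 kit, and the submitters' processing notes name fastp, HISAT2 and HTSeq without versions, roles or settings. The sources used here give no genome build, annotation or strand setting. The authors deposited 1 table with an estimated count and an FPKM value per gene and library. The counts had been rounded up, since each of 95 low values (100%) exceeded the count implied by its FPKM by 0 to 1 (tolerance 0.05, median 0.346), and they were used as deposited. The deposited FPKM values were scaled to length and library by the authors. Overlapping or antisense genes cannot be told apart.

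All 9 libraries entered 1 fit in edgeR 4.0.16 (R 4.3.3; quasi-likelihood test, two-sided, TMM factors 0.878 to 1.09, minimum count 10, no covariates), and p-values of the 22384 genes that passed the filter were adjusted together by Benjamini-Hochberg at a threshold of 0.05. DESeq2 1.42.0 and limma 3.58.1 on log2(FPKM + 1) were alternatives. The steps were tested on simulated data. Groups came from the treatment labels. Replicate libraries differed by more than sampling noise, with a chi-square per degree of freedom of 105 to 996.

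The 7 genes and all lists were chosen with earlier results of these data known. Lists were words matched to descriptions, for taxane and jasmonate genes and for leaf, woody, reproductive and seed, epidermis and heat shock markers. Named were the 7 genes, up to 4 called taxane genes per comparison with the lowest adjusted p and the leading copy of 5 set steps. Also named were the 2 jasmonate genes with the lowest adjusted p per comparison with CK, neighbouring genes averaging 1 FPKM or more in any group, and the 8 genes most like the mean profile.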

Additional observations from a re-analysis of the deposited data

How the results depend on the processing

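The median fold of the 7 genes kept its sign under every alternative run, and edgeR called 0 of them whichever library was left out. With 3 libraries a group and 2 CK libraries at 0, the size of these folds is uncertain, and for the libraries at 0 depth sets only an upper limit of the level. DESeq2 called 3751 genes at day 1, 3932 at day 2 and 64 between the days (edgeR 1196, 1107 and 0). Its shares of all genes were 16.6% at day 1 and 17.0% at day 2. It called 2 of the 7 genes at day 2, and 10 and 34 of 53 other taxane genes at days 1 and 2. It also called 8 and 9 of 22 jasmonate genes, and 2 and 11 of 36 neighbouring genes. limma on log2(FPKM + 1) called 5 and 15 of 50 taxane genes, against 7.34% and 7.75% of all genes. It called 1 of 24 neighbouring genes at day 2, and with a pseudocount of 0.1 the counts were 6, 16 and 1. Leaving out each library in turn gave 134 to 1193 genes at day 1, 48 to 2893 at day 2 and 0 to 0 between the days. Other taxane genes then numbered 0 to 2 at day 1 and 0 to 13 at day 2, jasmonate genes 0 to 4 and 0 to 8, and neighbouring genes 0 to 0 and 0 to 1. The median log2 fold of the 7 ran from 2.98 to 15.8 at day 1, 6.37 to 18.1 at day 2 and 1.16 to 4.79 between the days. The labels tie same-numbered libraries by the number alone, and whether they were paired cannot be told from them. Across all genes, day 1 and day 2 libraries correlated at 0.967 for number 1, 0.844 for number 2 and 0.968 for number 3. The values for numbers 1 and 3 were above the 0.956 of the closest pair within a group. The deviations of same-numbered libraries correlated at -0.114 to -0.0852 between CK and day 1, -0.00914 to 0.131 between CK and day 2 and -0.0168 to 0.287 between the days. With the replicate block, edgeR called 747 genes at day 1, 865 at day 2 and 0 between the days, and 1 and 2 other taxane genes; the median log2 fold of the 7 was 8.78, 9.38 and 0.73, and 0 of the 7 were called. The cause of these changes was not tested.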
